A study of Mus musculus with 42 samples.

Results

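The hypoxia-inducible factor (HIF) pathway was followed through 10 genes in RNA-seq libraries of the mouse carotid intima and of cultured aortic endothelial cells. The 10 genes were taken by name from the 21674 genes of the deposited table, and all 10 were found. They were the HIF subunits Hif1a, Epas1 and Arnt, the oxygen-sensing regulators Vhl, Egln1 and Egln3, and 4 target genes whose products lie outside glycolysis, Car9, Adm, Bnip3 and Ndrg1.

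Hif1a and Epas1 encode the alpha subunits HIF-1α and HIF-2α, and Arnt encodes the beta subunit with which either of them binds DNA at the core sequence ACGTG or GCGTG. When oxygen is plentiful the prolyl hydroxylases encoded by Egln1 (PHD2) and Egln3 (PHD3) mark the alpha subunits, and the ubiquitin ligase that contains the Vhl protein removes them, so that HIF activity is set largely at the level of protein, which RNA-seq does not measure. Epas1 is best known as the alpha subunit of endothelial cells. Egln3, Car9 (a membrane carbonic anhydrase), Adm (the vasodilator peptide adrenomedullin), Bnip3 (a mitochondrial autophagy receptor) and Ndrg1 (a stress-responsive cytoplasmic protein) are widely used as readouts of HIF activity.

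The study asked how low and disturbed flow changes RNA in the arterial endothelium. The low-flow artery was the left carotid after partial ligation, the high-flow artery was the contralateral carotid of the same mice, and sham arteries came from sham-operated mice. RNA was flushed from the intima, and each library held pooled RNA, of 4 to 5 arteries in the untreated experiment and 3 to 5 in the depletion experiment. The untreated mice and the mice of the depletion experiment were C57BL/6J males of 6 to 7 weeks, taken 48 hr after surgery, with 3 untreated pools each of low-flow, high-flow and sham arteries. In the depletion experiment there were 2 libraries per group: low flow with anti-GPIbα, which depletes platelets, low flow with anti-Gr1, which depletes granulocytes, low and high flow with control IgG, low flow with clodronate liposomes, which deplete macrophages, and low and high flow with PBS liposomes. At 7 d after ligation the mice were 2 to 7 months old and of both sexes. The 7 d EC-KO mice carried Cdh5(PAC)-CreERT2, the Rosa26-mTmG reporter and Rbfox2 lox/lox, and their littermate controls carried Rosa26-mTmG and Rbfox2 lox/lox without Cre, so that the deletion was confined to cells in which the Cdh5 promoter had been active. There were 3 low-flow libraries per genotype (numbered 1, 4 and 5) and 2 high-flow libraries per genotype (4 and 5). A further 100 bp pair, also taken at 48 hr from mice of 6 to 7 weeks, held 1 low-flow library with PBS liposomes and 1 with clodronate liposomes. Cultures had a single library per condition: an aortic endothelial line made from eGFP-positive sorted cells of Cdh5(PAC)-CreERT2; mTmG mice with a doxycycline-dependent SV40 T antigen that was off during the experiment (left alone, given 10% plasma, given platelets plus macrophages, or given all of these), primary eGFP-positive aortic cells, and primary CD31- and Icam2-sorted cells of Rbfox2 control and EC-KO mice. Per the methods, cells sorted on eGFP came from Cdh5(PAC)-CreERT2; Rosa26-mTmG mice, and the primary ones were taken at 5 d of culture. The primary cells of Rbfox2 mice came from donors of 2 to 7 months and were taken at 7 d. The labels do not say which mice went into which pool, so p-values measure only the spread between these pools.

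Levels below are scaled FPKM, the expected count divided by the effective transcript length and by the library size after TMM scaling within an experiment, in FPKM units. Where groups are said not to overlap, this describes the libraries shown. With 2 or 3 libraries a group it can easily arise without a difference, and its share over all genes was not counted. Total counts were 4064477 to 6794904 in the untreated pools, 12286104 to 19035957 in the depletion experiment and 10318685 to 18633538 at 7 d. Untreated low-flow pools a and b stood apart: their 50 most abundant genes held 40.3% and 41.2% of the counts against 19.9% to 21.9% in the other 7 untreated pools, and their TMM factors were 0.569 and 0.549 against 1.12 to 1.27. Results that rest on them are therefore also given with pool c as the lone low-flow library. Against sham that fit called 0 of 12187 genes, so only its log2 values are given. The flow-responsive genes Klf2 and Klf4 had lower mean levels at low than at high flow in every experiment; Klf2 was 1.86, 0.982 and 3.66 in the untreated low-flow pools and 53.3, 36.9 and 52.3 in the high-flow pools. Rbfox2, the gene deleted at 7 d, was 3.11, 5.59 and 2.76 in the low-flow control libraries and 1.08, 0.174 and 0.603 in the EC-KO libraries, and 3.73 and 4.05 against 0.775 and 1.08 at high flow. Levels are not compared between experiments, because read length, run or mice differed between them. Hif1a, for example, was 5.30 to 10.0 in the untreated pools of 100 bp reads and 34.2 to 95.2 in the other artery libraries of 150 bp reads. The cause was not tested.

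On the mm9 build used by the authors all 10 members are protein-coding genes. Hif1a lies at chr12:75002362-75048517 on the plus strand, Epas1 at chr17:87153247-87232750 (plus), Arnt at chr3:95238310-95301162 (plus), Vhl at chr6:113573953-113581627 (plus), Egln1 at chr8:127432496-127473154 (minus) and Egln3 at chr12:55279968-55304847 (minus). Car9 lies at chr4:43519838-43526601 (plus), Adm at chr7:117771175-117773331 (plus), Bnip3 at chr7:146082519-146101202 (minus) and Ndrg1 at chr15:66760883-66801202 (minus). Values are per gene and do not separate its transcripts.

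Promoter sequences of RefSeq on GRCm38.p6, from 250 bases before to 50 bases after the gene start, were matched for 8 of the 10 members, all but Epas1 and Ndrg1. The HIF core letters ACGTG and GCGTG were searched on both strands; the palindrome CACGTG counts on either strand, so matches can overlap. The promoters of the 3 members that were most often higher at low flow (Egln3, Car9 and Adm) and of Bnip3, which was lower, are shown for comparison, 5′ to 3′ along the gene's own strand, with the matched letters or their reverse complements in capitals.
Egln3 (chr12:54203825-54204124, minus strand): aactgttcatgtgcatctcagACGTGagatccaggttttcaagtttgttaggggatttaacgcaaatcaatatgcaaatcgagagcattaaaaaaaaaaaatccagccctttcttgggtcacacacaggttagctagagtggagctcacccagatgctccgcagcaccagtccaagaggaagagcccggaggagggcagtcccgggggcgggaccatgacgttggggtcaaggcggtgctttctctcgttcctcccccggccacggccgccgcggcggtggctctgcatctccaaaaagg
Car9 (chr4:43506776-43507075, plus strand): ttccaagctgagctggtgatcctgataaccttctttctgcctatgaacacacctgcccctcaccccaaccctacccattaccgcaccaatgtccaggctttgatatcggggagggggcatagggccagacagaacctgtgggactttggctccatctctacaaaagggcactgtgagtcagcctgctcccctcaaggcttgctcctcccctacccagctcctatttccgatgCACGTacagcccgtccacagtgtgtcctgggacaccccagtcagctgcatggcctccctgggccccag
Adm (chr7:110627407-110627706, plus strand): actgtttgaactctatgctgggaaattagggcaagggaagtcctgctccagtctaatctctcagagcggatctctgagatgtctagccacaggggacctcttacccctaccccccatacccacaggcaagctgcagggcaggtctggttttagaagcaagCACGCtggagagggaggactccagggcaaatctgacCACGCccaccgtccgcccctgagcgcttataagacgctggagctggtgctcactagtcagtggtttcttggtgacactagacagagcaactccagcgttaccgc
Bnip3 (chr7:138909457-138909756, minus strand): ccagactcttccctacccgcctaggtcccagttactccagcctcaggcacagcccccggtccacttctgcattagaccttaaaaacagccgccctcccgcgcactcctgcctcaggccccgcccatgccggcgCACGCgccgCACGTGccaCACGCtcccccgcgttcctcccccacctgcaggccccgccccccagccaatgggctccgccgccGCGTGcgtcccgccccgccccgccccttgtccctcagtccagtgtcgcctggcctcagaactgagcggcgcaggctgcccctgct
Egln3 held a single ACGTG match, which starts 229 bases before the gene start, and Car9 held a single ACGTG match 18 bases before it. Adm held 2 GCGTG matches, both read from the opposite strand as CACGC, 90 and 54 bases before the start. Bnip3 held 5 matches, among them the palindrome, between 117 and 35 bases before the start. Hif1a held 3 ACGTG matches, Egln1 held 2 matches, Arnt held 1 and Vhl held 0. Of all 32851 promoter entries, 43.8% held at least 1 match to either motif, 20.6% held 2 or more and 8.93% held 3 or more. A match describes the letters in this window and no more.

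Under low flow in untreated mice at 48 hr the HIF genes went in different directions. Epas1, Bnip3 and Ndrg1 were lower than at high flow, Car9 and Adm were higher, and Hif1a did not pass the test. Of the 10 members, 9 had enough reads to be tested; 2 were called higher (Car9 and Adm), 5 lower (Epas1, Vhl, Egln1, Bnip3 and Ndrg1) and 2 were not called, at an adjusted p under 0.05 by edgeR's quasi-likelihood test with Benjamini-Hochberg adjustment over all genes. In the same comparison 46.2% of the 11236 genes tested were called, so the count of members called describes these genes and does not set them apart. Car9 and Adm passed the filter on low counts through the low-flow pools, where they are high (both were removed from the fit of high flow against sham), so their calls are not counted as support for a direction of the members.

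Hif1a was 10.0, 9.96 and 8.94 in low-flow pools a, b and c, 5.30, 7.66 and 9.25 in the high-flow pools and 7.10, 7.09 and 7.49 in the sham pools. High-flow pool c lay within the low-flow range, whereas the sham pools lay below it. The low-to-high difference was 0.37 (log2, SE 0.21, adjusted p = 0.176). Against sham it was 0.38 (log2, SE 0.15, adjusted p = 0.074). When library totals replaced TMM scaling Hif1a was -0.29 and -0.32, in a fit that moved the median of all genes from -0.07 to -0.69 and from -0.04 to -0.71, so that Hif1a stayed above the median gene by either scaling.

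Epas1 was 35.3, 19.1 and 34.9 at low flow, 97.3, 167 and 170 at high flow and 124, 158 and 89.7 in sham arteries. All 3 low-flow pools lay below every other pool, with a mean of 29.8 ± 9.22 (SD, n = 3) against 145 ± 41.3 at high flow. Epas1 fell by 2.29 (SE 0.34) on the log2 scale against high flow (adjusted p = 0.000353) and by 2.09 (SE 0.34) against sham (adjusted p = 0.00296). With pool c as the lone low-flow library it was -2.04 (adjusted p = 0.00448) against high flow and -1.86 against sham. Across 12 alternatives the low-to-high value ran from -2.86 to -2.04 with an adjusted p of at most 0.00448.

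Arnt, the partner of both alpha subunits, was 6.45, 5.17 and 6.45 at low flow, 6.21, 11.3 and 9.65 at high flow and 8.72, 10.3 and 7.43 in sham arteries. High-flow pool a fell within the low-flow range, and the low-to-high difference was -0.59 (log2, SE 0.23, adjusted p = 0.0587). Against sham, whose pools all lay above the low-flow pools, Arnt fell by 0.57 (SE 0.19, adjusted p = 0.0405), and was -0.48 with pool c alone. The call was lost under DESeq2 (adjusted p = 0.107) and in 5 of the 6 fits without 1 pool.

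**Figure D1:**
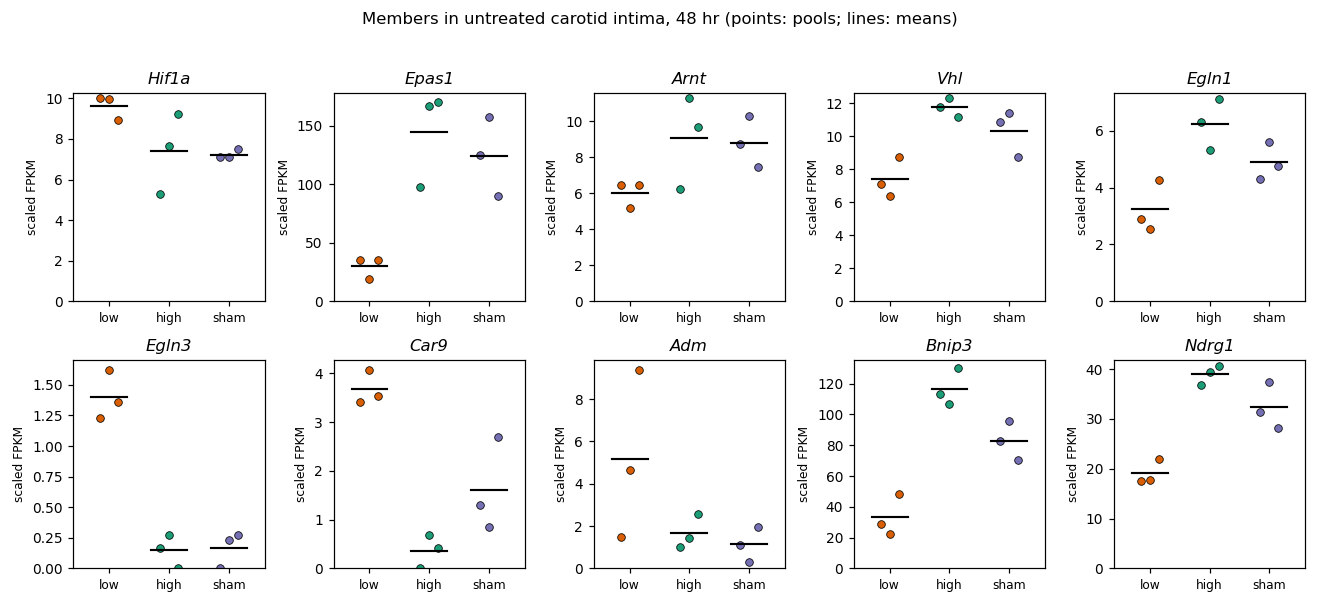
Scaled FPKM of the 10 members in the untreated low-flow, high-flow and sham pools at 48 hr; each point is a pool and each bar the mean of 3 pools. Epas1, Bnip3 and Ndrg1 lie lower in every low-flow pool than in any other pool, and Car9 and Egln3 lie higher.

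Of the genes that regulate the alpha subunits, Vhl and Egln1 were lower at low flow and Egln3 was higher. Vhl was 7.08, 6.35 and 8.74 at low flow, 11.7, 12.3 and 11.2 at high flow and 10.9, 11.4 and 8.72 in sham arteries. The low- and high-flow pools did not overlap, and sham pool c lay just below low-flow pool c. The low-to-high difference was -0.66 (log2, SE 0.19, adjusted p = 0.0159), but 0.0531 under DESeq2, and the call was lost without low-flow pool a (0.056) or b (0.0502), without high-flow pool b (0.0583), and with pool c alone (-0.42, adjusted p = 0.27). Egln1 was 2.91, 2.55 and 4.27 at low flow, 6.30, 5.33 and 7.11 at high flow and 4.30, 5.62 and 4.76 in sham arteries. Its low-flow pools all lay below the rest, only narrowly so for pool c against sham pool a. Egln1 fell by 0.91 (SE 0.24, adjusted p = 0.0113) against high flow, and was -0.53 (adjusted p = 0.225) with pool c alone; against sham it was -0.59 (log2, SE 0.25, adjusted p = 0.0836).

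Egln3, itself a HIF target, was near the limit of detection outside the low-flow pools. It had 12, 10 and 22 reads in low-flow pools a, b and c, 2, 5 and 0 in the high-flow pools and 0, 3 and 4 in the sham pools, where a count of 0 allows up to 3 counts. Scaled for depth the levels were 1.23, 1.62 and 1.36 at low flow, 0.167, 0.274 and 0 at high flow and 0, 0.230 and 0.276 in sham arteries. Each low-flow pool exceeded every other pool, and without the filter on low counts, which removed this gene, Egln3 rose by 3.06 on the log2 scale against high flow (adjusted p = 0.000193) and by 2.90 against sham (adjusted p = 0.00368). With pool c as the lone low-flow library it was 3.07 against high flow and 2.89 against sham, in fits that Egln3 entered through pool c alone, where it is high, so no test is read from them.

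The 4 targets split into Car9 and Adm, which were higher at low flow, and Bnip3 and Ndrg1, which were lower. Car9 was 3.42, 4.07 and 3.54 at low flow, 0, 0.688 and 0.411 at high flow and 1.30, 0.854 and 2.70 in sham arteries. The low-flow pools lay above all others, and the sham pools above the high-flow pools. Car9 rose by 3.13 (SE 0.54, adjusted p = 0.000838) against high flow and was called in all 12 alternatives, from 2.53 to 3.97. As stated above, it passed the filter through the low-flow pools, where it is high. These calls are therefore not counted as support for a direction. Against sham it was 1.12 (log2, SE 0.40, adjusted p = 0.0511), with 3 of 12 alternatives under 0.05, namely without sham pool c (1.73, adjusted p = 0.0073), with DESeq2 size factors (0.0469) and without the filter (0.0487). It was 0.47 (adjusted p = 0.553) with library totals. Between high flow and sham, where it did not pass the filter, it was -2.01 (adjusted p = 0.264) without the filter.

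Adm was 1.46, 4.64 and 9.39 at low flow, 1.02, 1.46 and 2.56 at high flow and 1.11, 0.313 and 1.98 in sham arteries. Low-flow pool a lay within the range of the other groups and pool c held the highest level. Adm rose by 1.68 (SE 0.58, adjusted p = 0.0357) against high flow and by 2.19 (SE 0.70, adjusted p = 0.0363) against sham. The call against high flow rested on few pools: it was lost without low-flow pool b (adjusted p = 0.0711), without low-flow pool c (0.75, adjusted p = 0.314), without high-flow pool a (0.093) or b (0.106), and with library totals (1.23, adjusted p = 0.0933), and was 2.48 (adjusted p = 0.00567) with pool c alone. The call against sham was also lost without low-flow pool b (adjusted p = 0.0796) or c (1.27, adjusted p = 0.187), and without sham pool a (0.0984) or b (0.0842), and the value was 2.98 with pool c alone.

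Bnip3 was 28.9, 22.3 and 48.4 at low flow, 113, 107 and 130 at high flow and 82.8, 95.5 and 70.3 in sham arteries. Its groups separated in full, with sham between low and high flow. Bnip3 fell by 1.81 (SE 0.28, adjusted p = 0.000403) against high flow and by 1.35 (SE 0.29, adjusted p = 0.00836) against sham, and was -1.26 (adjusted p = 0.00918) against high flow and -0.81 against sham with pool c alone. Ndrg1 was 17.6, 17.8 and 21.9 at low flow, 36.7, 39.4 and 40.7 at high flow and 31.3, 37.5 and 28.1 in sham arteries. The low-flow pools again lay below every other pool. Ndrg1 fell by 1.03 (SE 0.18, adjusted p = 0.000824) against high flow and by 0.79 (SE 0.19, adjusted p = 0.0119) against sham, and was -0.82 (adjusted p = 0.0396) against high flow and -0.59 against sham with pool c alone.

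Against sham 5 of the 9 tested members were called, Adm higher and Epas1, Arnt, Bnip3 and Ndrg1 lower, where 40.3% of 11164 genes were called. Without low-flow pool b 3 members and 2775 of 11653 genes were called. Between high flow and sham 0 of the 7 members tested were called by edgeR or DESeq2, as for 0% of 11030 genes by edgeR. Without adjustment 868 genes lay under 0.05, and DESeq2 called 101. The nearest was Bnip3, 0.48 (log2, SE 0.18, adjusted p = 0.511), whose sham pools lay below all high-flow pools.

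Cell type markers moved with flow in the same pools. The 12 endothelial markers together took 0.44% to 0.579% of counts at low flow, 0.976% to 1.15% at high flow and 0.912% to 1.2% in sham arteries, and all 12 were detected in every pool. Smooth muscle markers took 0.233% to 0.432%, 0.0557% to 0.0654% and 0.0492% to 0.166%, macrophage markers 0.037% to 0.0798%, 0.0065% to 0.012% and 0.0122% to 0.0245%, and neutrophil markers 0.0251% to 0.0502%, 0.000749% to 0.00245% and 0.00142% to 0.00469%. Fat cell markers took 0.000545% to 0.00126% at low flow, 0.014% to 0.184% at high flow and 0.00157% to 0.0106% in sham arteries, and all 6 that were tested fell against high flow. Fibroblast markers took 0.00564% to 0.0367%, 0.0261% to 0.0765% and 0.0437% to 0.053% in the order low flow, high flow and sham, and 2 of 6 fell against high flow. Red cell markers took 0.0376% to 0.166%, 0.304% to 0.563% and 0.135% to 0.31% in the same order, and 4 of 5 fell against high flow. The summed shares are of total counts without TMM scaling, and low-flow pools a and b had low TMM factors (0.569 and 0.549). They also rest on the most abundant markers of a list. Gene by gene against high flow after TMM scaling, 3 of 12 endothelial markers rose and 4 fell. Their median was -0.09 against -0.07 over all genes tested. Of 7 tested smooth muscle markers 3 rose and 1 fell (median -0.13), 10 of 12 macrophage markers rose, and all 7 tested neutrophil markers rose. In bulk libraries fewer cells of a type and less RNA per cell cannot be told apart, and the part of these shifts in the members' differences was not tested.

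Beyond the members, the pathway was described through lists drawn up with earlier results of these data known. Of 14 other tested genes of the HIF machinery 2 rose at low flow against high flow, where 46.2% of all genes were called (2652 higher and 2543 lower), the chaperone gene Hsp90aa1 (1.504, adjusted p = 0.000424) and Gnb2l1 (2.03, adjusted p = 0.00245), which encodes the scaffold RACK1. Another 2 fell, the ubiquitin ligase gene Siah1a (-1.19) and P4htm (-1.12), a transmembrane prolyl hydroxylase. The list's median was 0.33 against -0.07 over all genes tested. Of 32 other non-glycolytic targets 9 rose and 15 fell (median -0.28), and the examples with the smallest adjusted p were all among those that rose, with the haem oxygenase gene Hmox1 at 3.29, Ptgs2 (cyclooxygenase 2) at 3.59 and Edn1 (endothelin 1) at 2.41. Of 19 glycolytic targets 13 rose and 1 fell (median 0.86), among them Pfkfb4 (3.72), Pgk1 (2.34), Gapdh (2.83) and Eno1 (2.46). Against sham, where 40.3% of all genes were called (2304 higher and 2195 lower), 3 machinery genes rose and 2 fell, 9 of 30 non-glycolytic targets rose and 10 fell, and 13 of 19 glycolytic targets rose and 1 fell.

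**Figure D2:**
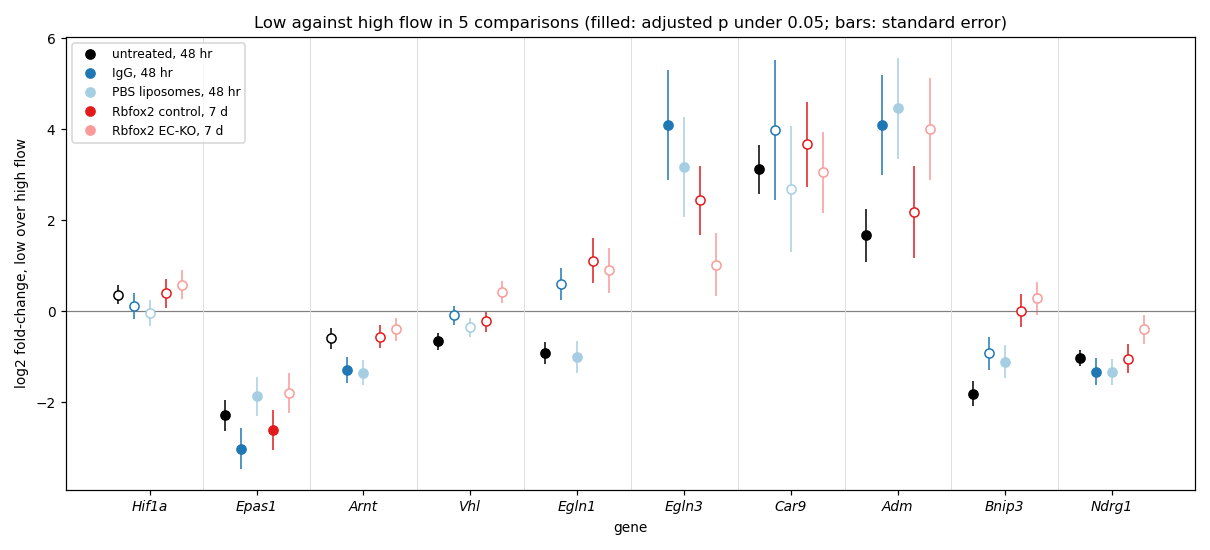
Log2 fold-change (edgeR) of each member at low flow relative to high flow in the 5 settings that had both arteries. Vertical lines are ± 1 SE. Epas1 lies below 0 in all 5 settings and Car9, Adm and Egln3 lie above 0 where they were tested, while Egln1 lies on both sides of 0.

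The flow comparison could be made again in the IgG and PBS liposome mice of the depletion experiment. With IgG 5 of 10 members were called (Egln3 and Adm higher, Epas1, Arnt and Ndrg1 lower), where 40.5% of 13401 genes were called, and with PBS liposomes 7 were (Egln3 and Adm higher, Epas1, Arnt, Egln1, Bnip3 and Ndrg1 lower), where 35% of the genes were. All low-flow libraries of this experiment were sequenced in an earlier run than the high-flow libraries, so that run and flow cannot be told apart here. Each of these control flow comparisons was fitted with all 7 groups of the experiment. The endothelial marker share was 0.53% to 0.648% at low and 1.83% to 1.85% at high flow with IgG, and 0.479% to 0.487% and 1.07% to 1.4% with PBS liposomes. In the same order smooth muscle markers took 0.439% to 0.475%, 0.0553% to 0.0806%, 0.304% to 0.59% and 0.0516% to 0.0942%, macrophage markers 0.0734% to 0.0877%, 0.0141% to 0.0291%, 0.0364% to 0.0589% and 0.016% to 0.0169%, and neutrophil markers 0.0137% to 0.0398%, 0.000806% to 0.0068%, 0.0115% to 0.0342% and 0.000902% to 0.00235%. Gene by gene with IgG and with PBS liposomes, 2 and 2 of 12 endothelial markers rose and 6 and 5 fell, 2 and 2 of 8 smooth muscle markers, 11 and 8 of 14 macrophage markers and 6 and 6 of 10 neutrophil markers rose. The part of these shifts in the members' differences was not tested.

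Hif1a was 61.1 and 68.2 at low flow and 59.7 and 59.0 at high flow with IgG, and 65.3 and 68.2 and 65.7 and 70.9 with PBS liposomes. The differences were 0.12 (log2, SE 0.29, adjusted p = 0.754) and -0.03 (log2, SE 0.29, adjusted p = 0.938). Epas1 was 26.9 and 14.4 at low flow and 161 and 174 at high flow with IgG, and 17.5 and 11.4 against 68.1 and 37.6 with PBS liposomes. No low-flow library reached its high-flow counterparts, although the high-flow PBS libraries were well under the high-flow IgG libraries. Epas1 fell by 3.02 (SE 0.45, adjusted p = 0.00114) with IgG and by 1.87 (SE 0.43, adjusted p = 0.00753) with PBS liposomes. Arnt, at 11.1 and 9.09 against 21.8 and 27.6 and at 7.48 and 6.95 against 21.9 and 14.8, fell by 1.29 (adjusted p = 0.00523) and 1.35 (adjusted p = 0.00469), with no overlap between groups.

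Vhl was 16.7 and 18.0 against 17.4 and 19.3 with IgG and 19.2 and 15.3 against 20.5 and 23.6 with PBS liposomes, and was not called (adjusted p = 0.774 and 0.204). Egln1 went opposite ways, 7.79 and 6.07 at low against 4.95 and 4.24 at high flow with IgG (log2 0.59, SE 0.35, adjusted p = 0.193) and 13.6 and 10.4 against 26.1 and 22.1 with PBS liposomes, where it fell by 1.00 (adjusted p = 0.0429), a call lost without any 1 of the 4 libraries (adjusted p = 0.0745 to 0.239). Egln3 was 2.75 and 4.77 at low flow against 0 and 0.429 at high flow with IgG and 3.09 and 9.81 against 0.543 and 0.881 with PBS liposomes. Every low-flow library exceeded its high-flow counterparts, and Egln3 rose by 4.10 (SE 1.21, adjusted p = 0.0199) and 3.17 (SE 1.10, adjusted p = 0.044). With 1 library left out its values were 3.13 to 10.27 with IgG and 2.12 to 3.78 with PBS liposomes, and neither call held throughout.

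Car9 was 2.71 and 4.25 at low flow against 0 and 0.427 with IgG and 2.96 and 5.79 against 0.0399 and 1.31 with PBS liposomes; the groups did not overlap, and neither difference was called (3.98, adjusted p = 0.0577, and 2.69, adjusted p = 0.15). With IgG Car9 was called by DESeq2 (adjusted p = 0.00977), without the filter (0.0401), with the replicate block (0.0295) and with the 2 groups alone (0.0441). It had 10 reads in all in the high-flow IgG libraries, 1 of which was at 0. In the fit of the 2 groups alone it passed the filter through the low-flow libraries, where it is high. That call is therefore not counted as support for a direction. Adm was 17.0 and 21.3 against 1.60 and 0.626 with IgG and 42.3 and 6.61 against 1.76 and 0.451 with PBS liposomes. The PBS low-flow libraries differed widely from each other, and Adm rose by 4.10 (SE 1.10, adjusted p = 0.013) and by 4.47 (SE 1.11, adjusted p = 0.0105). Bnip3 was 32.9 and 29.0 against 55.0 and 61.9 with IgG (log2 -0.92, SE 0.36, adjusted p = 0.0615) and 36.6 and 25.7 against 76.6 and 57.1 with PBS liposomes, where it fell by 1.10 (adjusted p = 0.0347). With 1 library left out the value with PBS liposomes was -1.38 to -0.86, and the call did not hold throughout. Bnip3 with IgG was called by DESeq2, without the filter, with the replicate block and with the 2 groups alone (adjusted p = 0.0145 to 0.0457). Ndrg1 was 49.3 and 43.0 against 114 and 116 with IgG and 42.0 and 42.0 against 107 and 105 with PBS liposomes, and fell by 1.32 (adjusted p = 0.00556) and 1.33 (adjusted p = 0.00572). With 2 libraries a group the counts moved when 1 was left out: with IgG 1 to 5 members stayed called, 1 of them without low-flow library 2, and with PBS liposomes 2 to 4 of the 7 did, 2 of them without high-flow library 1. Car9 was called in addition without high-flow library 2, with IgG and with PBS liposomes. Among the pathway lists, beside 40.5% of all genes called with IgG and 35% with PBS liposomes, 10 of 37 other non-glycolytic targets rose and 12 fell with IgG, and 9 rose and 14 fell with PBS liposomes; of 21 glycolytic targets 10 rose and 1 fell in each.

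Depletion of platelets with anti-GPIbα was compared with IgG at low flow to ask whether platelets take part in the response. Bnip3 and Ndrg1 were higher after anti-GPIbα, and the other 8 members were not called, where 16.5% of all genes were called. Bnip3 was 76.7 and 116 after anti-GPIbα against 32.9 and 29.0 with IgG, and rose by 1.64 (SE 0.37, adjusted p = 0.0252). Ndrg1 was 88.5 and 119 against 49.3 and 43.0, and rose by 1.17 (SE 0.29, adjusted p = 0.031). The depleted libraries lay above the IgG libraries for both genes, and with any 1 of the 4 libraries left out the values were 1.31 to 1.91 for Bnip3 and 0.94 to 1.36 for Ndrg1. Neither was called in those fits (adjusted p = 0.06 to 0.187 and 0.0669 to 0.216), in which 1 to 89 of all genes were called.

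Members that were higher at low flow were at lower levels in the anti-GPIbα libraries without reaching the threshold. The flow comparison with IgG used the same low-flow IgG libraries. Opposite signs of a gene in these comparisons are therefore partly built in and are not read as a reversal. Adm was 1.92 and 3.04 against 17.0 and 21.3 (log2 -2.95, SE 1.01, adjusted p = 0.0637), Egln3 0.917 and 0.544 against 2.75 and 4.77 (log2 -2.36, SE 1.07, adjusted p = 0.133) and Car9 0.684 and 0.204 against 2.71 and 4.25 (log2 -2.96, SE 1.404, adjusted p = 0.15). Epas1 was 48.8 and 47.9 against 26.9 and 14.4 (log2 1.23, SE 0.43, adjusted p = 0.065). None of these groups overlapped, which with 2 libraries a group is easily reached without a difference. Adm was called by DESeq2 (adjusted p = 0.00719), without the low-count filter (0.0401) and with the 2 groups fitted alone (0.00226). Epas1 was called in those fits (0.0187, 0.0413 and 0.0176) and with the replicate block (0.017), and Egln3 (0.0125) and Car9 (0.0166) in the fit of the 2 groups alone. Hif1a was 44.6 and 40.9 against 61.1 and 68.2 (log2 -0.60, SE 0.29, adjusted p = 0.161), Arnt 17.5 and 13.0 against 11.1 and 9.09, Vhl 21.9 and 24.3 against 16.7 and 18.0 and Egln1 7.22 and 17.3 against 7.79 and 6.07, where a single depleted library held the high value.

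In the same libraries the endothelial marker share was 1.13% to 1.15% after anti-GPIbα and 0.53% to 0.648% with IgG, that of smooth muscle 0.0749% to 0.105% and 0.439% to 0.475%, and that of macrophages 0.0189% to 0.0192% and 0.0734% to 0.0877%. Neutrophil markers took 0.000793% to 0.00154% and 0.0137% to 0.0398%, and fat cell markers 0.00624% to 0.0568% and 0.000888% to 0.0102%. Gene by gene 2 of 12 endothelial markers rose, 2 of 8 smooth muscle, 7 of 14 macrophage and 6 of 10 neutrophil markers fell, and 0 of 7 fat cell markers were called. The part of these shifts in the differences of Bnip3 and Ndrg1 was not tested. Of the other HIF genes, beside 16.5% of all genes called, 2 of 15 machinery genes rose and 4 fell, 9 of 37 non-glycolytic targets rose and 5 fell, with Angptl4 (a lipase inhibitor) at -3.72 and Kdm3a (a histone demethylase) at 1.37, and 1 of 21 glycolytic targets rose and 8 fell, with Pfkfb4 at -2.46.

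Neither of the other depletions changed a member past the threshold. After anti-Gr1 0 of 10 were called by edgeR or DESeq2, where edgeR called 0% of all genes (2432 lay under 0.05 before adjustment) and DESeq2 called 142; the members' adjusted p-values were 0.243 to 0.835, and 2 had an unadjusted p under 0.05. The anti-Gr1 libraries 1 and 2 were far apart for Hif1a (35.3 and 77.3) and Adm (3.87 and 23.4), and Adm of library 2 exceeded both IgG libraries. Epas1 was 37.6 and 33.7, Egln3 1.04 and 1.92, Car9 1.24 and 1.25, Bnip3 63.8 and 41.0 and Ndrg1 90.0 and 67.4. These 5 genes lay between the IgG libraries of low and of high flow, except that Bnip3 of library 1 was above the high-flow libraries. After clodronate 0 members were called by edgeR or DESeq2, where 0.119% of all genes were, with adjusted p-values between 0.27 and 0.883 and an unadjusted p under 0.05 for 2 members. Clodronate libraries 1 and 2 differed from each other, with Epas1 at 45.7 and 19.4, Egln3 at 0.698 and 4.95, Car9 at 0.288 and 3.66, Bnip3 at 60.7 and 29.0 and Ndrg1 at 60.1 and 30.6. Library 1 lay outside the range of the low-flow PBS libraries for all 5 genes, whereas library 2 lay within it for Egln3, Car9 and Bnip3. Epas1 was 1.17 (log2, SE 0.43, adjusted p = 0.27) and passed the threshold without clodronate library 2 (1.68, adjusted p = 0.0406). Adm was 2.91 and 7.53 after clodronate (log2 -2.23, SE 0.98, adjusted p = 0.323), and Hif1a 49.7 and 58.4. Endothelial markers took 0.875% to 0.992% of counts after anti-Gr1 and 0.678% to 1.04% after clodronate. In the same order macrophage markers took 0.0663% to 0.0701% and 0.0122% to 0.0145%, and neutrophil markers 0.00206% to 0.00399% and 0.00331% to 0.00402%. Gene by gene 2 of 14 macrophage markers fell after clodronate, and no endothelial or neutrophil marker was called in either. The part of these shifts in the members' levels was not tested.

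Anti-GPIbα and anti-Gr1 share the IgG controls, and the difference between them was tested directly. No member was called (0 of 10, adjusted p = 0.367 to 0.963, 3 with an unadjusted p under 0.05, and 0 by DESeq2), as for 0% of all genes by edgeR, with 1409 genes under 0.05 before adjustment; 354 genes were called by DESeq2. That Bnip3 and Ndrg1 passed against IgG after anti-GPIbα and not after anti-Gr1 therefore does not show that the depletions differed.

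**Figure D3:**
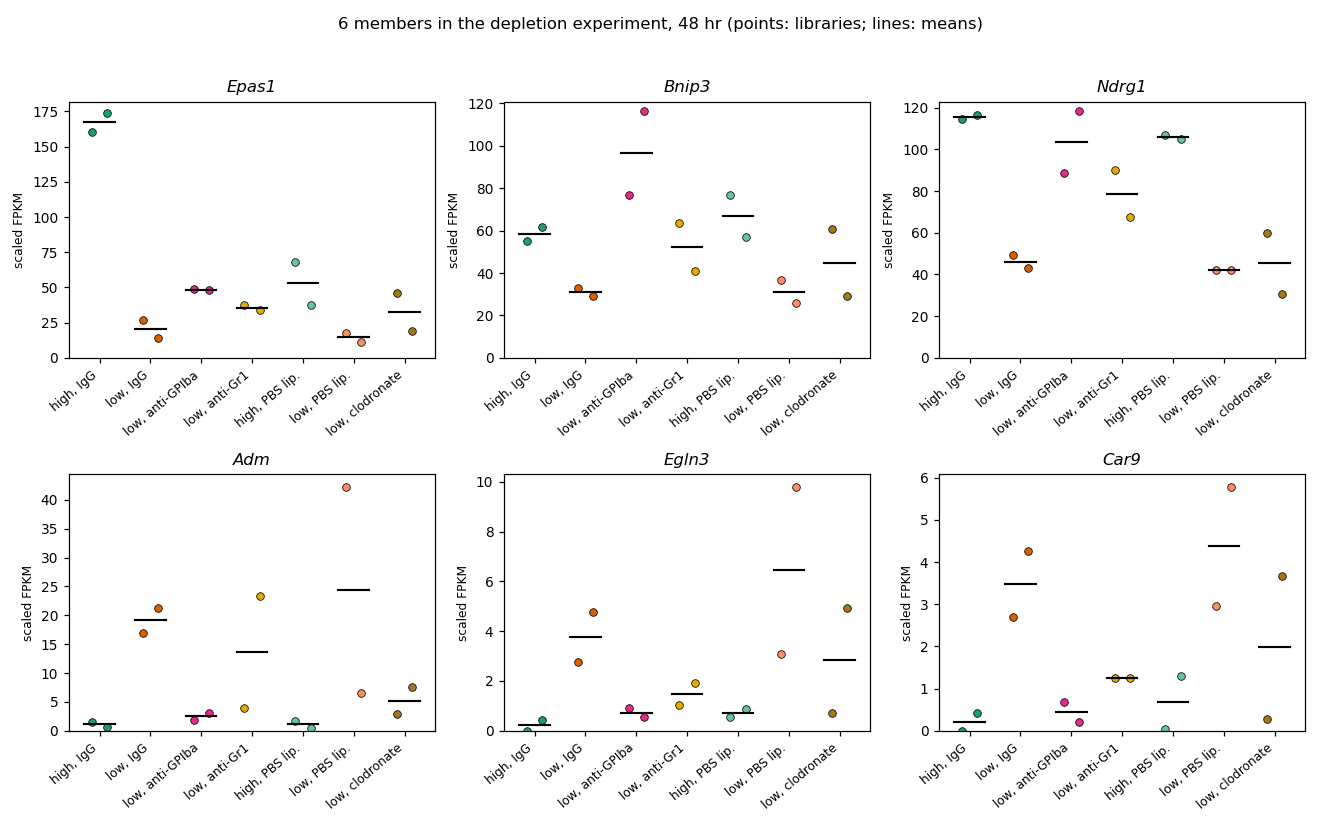
Scaled FPKM of Epas1, Bnip3, Ndrg1, Adm, Egln3 and Car9 in the 14 libraries of the depletion experiment at 48 hr, 2 per group. Each point is a library and each bar the mean of 2. Bnip3 and Ndrg1 are higher in both anti-GPIbα libraries than in the low-flow IgG libraries, and the 2 clodronate libraries are far apart for Egln3 and Car9.

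A further pair of 100 bp libraries compared clodronate with PBS liposomes at low flow with 1 library each, so no test could be made and the 95% Poisson intervals cover counting error only. In FPKM without TMM scaling Adm was 5.20 with clodronate and 14.5 with PBS liposomes (ratio 0.358, 0.239 to 0.527), Egln3 was 0.402 and 1.66 (ratio 0.241, 0.0801 to 0.614) and Car9 was 3.36 and 6.01 (ratio 0.559, 0.358 to 0.863). Epas1 was 60.5 and 38.1 (ratio 1.59, 1.47 to 1.72) and Bnip3 47.3 and 31.1 (ratio 1.52, 1.30 to 1.78). Ndrg1 was 18.2 and 25.3 (ratio 0.72, 0.616 to 0.843) and Hif1a 16.4 and 22.4 (ratio 0.734, 0.646 to 0.834). In this pair Epas1 and Bnip3 were higher with clodronate, and Ndrg1 was lower.

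The same flow comparison was made at 7 d, where the count of calls depended on the fit. In the controls 1 of 10 members was called at low against high flow, where 2.4% of 13352 genes were called, and in the EC-KO mice 0 were by edgeR (3 by DESeq2), where 1.09% were. High-flow arteries were contralateral to low-flow ones, but the labels do not say that libraries 4 and 5 of both arteries came from the same mice. With the library number as a replicate block 6 members and 2940 genes were called in the controls, and 2 members and 1317 genes in the EC-KO mice. Low-flow libraries numbered 1 came from an earlier sequencing run than the high-flow libraries, and low-flow library 5 of the controls and 4 of the EC-KO mice from a later run. Without the earlier run 6 members and 3840 genes were called in the controls and 2 members and 1100 genes in the EC-KO mice; low-flow libraries of the later run were still among them, so flow and run were not fully separated.

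Epas1 was 44.6, 15.04 and 14.8 in control low-flow libraries 1, 4 and 5 and 136 and 165 in the control high-flow libraries. Library 1 lay above the other low-flow libraries and below every high-flow library. Epas1 fell by 2.60 (SE 0.44, adjusted p = 0.0261) in the controls, and was -3.34 to -2.34 with any 1 library left out. The call was lost without any library other than low-flow library 1 (adjusted p = 0.0546 to 0.22), in fits that called 3 to 52 of all genes. The value was -3.33 (adjusted p = 0.000193) without the libraries of the earlier run. In the EC-KO mice Epas1 was 47.6, 34.0 and 38.3 at low and 135 and 141 at high flow (log2 -1.79, SE 0.43, adjusted p = 0.0891), and -1.93 (adjusted p = 0.00295) without the earlier run. Hif1a was 45.8, 95.2 and 73.7 at low and 47.4 and 61.0 at high flow in controls (log2 0.40, SE 0.32, adjusted p = 0.457) and 47.9, 72.6 and 58.0 against 34.2 and 44.9 in EC-KO mice (log2 0.59, SE 0.32, adjusted p = 0.4). Arnt was 24.8, 17.2 and 14.0 against 25.5 and 29.6 in controls (log2 -0.56, SE 0.25, adjusted p = 0.198) and 20.3, 19.3 and 15.3 against 23.4 and 24.7 in EC-KO mice.

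Car9 was 1.42, 5.42 and 3.76 at low flow and 0.190 and 0.362 at high flow in controls, and 1.88, 5.23 and 5.88 and 0.273 and 0.758 in EC-KO mice. The low-flow libraries of each genotype exceeded its high-flow libraries, and the differences were 3.67 (log2, SE 0.93, adjusted p = 0.0602) and 3.05 (log2, SE 0.88, adjusted p = 0.138). Without the earlier run they were 4.05 (adjusted p = 0.00686) and 3.42 (adjusted p = 0.0307). Car9 had 12 and 32 reads in all in the high-flow control and EC-KO libraries. It passed the filter on low counts through the low-flow libraries, where it is high. Its calls at 7 d in filtered fits are therefore not counted as support for a direction. Egln3 was 1.75, 6.71 and 2.35 against 0.765 and 0.556 in controls (log2 2.44, SE 0.75, adjusted p = 0.087) and 1.73, 4.61 and 3.34 against 1.93 and 1.22 in EC-KO mice (log2 1.03, SE 0.70, adjusted p = 0.507), where the groups overlapped. Adm was 5.39, 5.15 and 13.5 against 1.62 and 1.90 in controls (log2 2.18, SE 1.01, adjusted p = 0.212) and 4.02, 22.9 and 2.14 against 0.351 and 0.835 in EC-KO mice (log2 4.01, SE 1.12, adjusted p = 0.128), without overlap in either.

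Ndrg1 was 66.7, 70.1 and 33.6 at low and 123 and 110 at high flow in controls (log2 -1.04, SE 0.32, adjusted p = 0.0862), and 85.5, 116 and 68.7 against 119 and 118 in EC-KO mice (log2 -0.40, SE 0.32, adjusted p = 0.585), where low-flow library 4 lay close to the high-flow libraries. Bnip3, which fell at low flow in the untreated pools, was 67.9, 26.7 and 35.9 against 46.4 and 39.6 in controls (log2 0.02, SE 0.36, adjusted p = 0.983), with low-flow library 1 above both high-flow libraries and the others below them. In EC-KO mice it was 57.2, 40.2 and 41.6 against 33.5 and 42.5 (log2 0.29, SE 0.36, adjusted p = 0.745). Egln1 was 5.17, 7.22 and 9.43 against 4.19 and 2.499 in controls (log2 1.12, SE 0.50, adjusted p = 0.201) and 4.77, 10.2 and 14.9 against 4.07 and 6.5 in EC-KO mice. Vhl was 15.6, 16.3 and 13.9 against 20.4 and 15.1 in controls and 15.9, 20.7 and 16.4 against 12.1 and 14.2 in EC-KO mice, without a call in either (adjusted p = 0.583 and 0.407). In the controls Arnt, Egln1, Egln3, Car9 and Ndrg1 were each called with the replicate block (-0.75, 1.39, 2.64, 4.11 and -1.16, adjusted p = 0.0389, 0.0379, 0.0125, 0.0086 and 0.0187) and without the earlier run (adjusted p = 0.00686 to 0.0404), and Egln3, Car9 and Ndrg1 by DESeq2 (0.00857, 0.000643 and 0.0277). In the EC-KO mice Epas1 and Car9 were called with the replicate block (-2.12 and 3.52, adjusted p = 0.0039 and 0.0227), and Epas1, Car9 and Adm by DESeq2 (0.0025, 0.00494 and 0.00117).

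The endothelial marker share was 0.551% to 1.15% in the low-flow and 1.59% to 1.66% in the high-flow control libraries, and 0.808% to 0.997% and 1.7% to 1.74% in the EC-KO libraries; control library 1, which had the highest Epas1 of its group, had the highest share (1.15%). In the same order of groups smooth muscle markers took 0.131% to 0.179%, 0.0321% to 0.0412%, 0.112% to 0.17% and 0.0292% to 0.0341%, macrophage markers 0.0187% to 0.108%, 0.0128% to 0.0144%, 0.0779% to 0.118% and 0.0122% to 0.025%, and fibroblast markers 0.0363% to 0.0971%, 0.0432% to 0.0542%, 0.0994% to 0.341% and 0.034% to 0.047%. Gene by gene in the controls and in the EC-KO mice, 1 and 1 of 12 endothelial markers rose and 2 and 2 fell, 1 and 1 of 8 smooth muscle, 1 and 0 of 14 macrophage and 0 and 1 of 6 fibroblast markers rose. Neutrophil markers took 0.00235% to 0.0392%, 0.00145% to 0.00245%, 0.000966% to 0.00389% and 0.000334% to 0.000886% in that order of groups, and 0 of 9 tested were called in either genotype. The part of these shares in the members' levels was not tested.

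Between EC-KO and control mice 0 of 10 members were called at low flow by edgeR or DESeq2, where edgeR called 0% of all genes (880 lay under 0.05 before adjustment, among them 1 member, Ndrg1) and DESeq2 called 11. At high flow 0 of 10 were called, where 0.00749% of all genes were, and 0 had an unadjusted p under 0.05. In the test of flow by genotype 0 members and 0% of all genes were called, with 0 members and 538 genes under 0.05 before adjustment; by DESeq2 19 genes and 0 members were called. Epas1 at low flow was 0.69 (log2, SE 0.39, adjusted p = 0.692). The value was 1.42 (adjusted p = 0.00962) without control library 1, the low-flow control with the highest level, and 1.28 (adjusted p = 0.0244) without the earlier run. In those fits 1476 of 13251 and 374 of 13159 genes were called in all, so Epas1 was 1 of many. Without the earlier run the flow by genotype test gave 1.401 (adjusted p = 0.124). The other 9 members ranged from -0.27 for Hif1a to 0.66 for Ndrg1 at low flow (adjusted p = 0.692 to 0.981), and all overlapped between genotypes. Rbfox2 itself was not called at this adjusted threshold (log2 -2.61, SE 0.58, adjusted p = 0.692 at low flow, log2 -2.06, SE 0.69, adjusted p = 1 at high flow) although its levels did not overlap, so a missed threshold here does not show that a gene was unaltered.

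**Figure D4:**
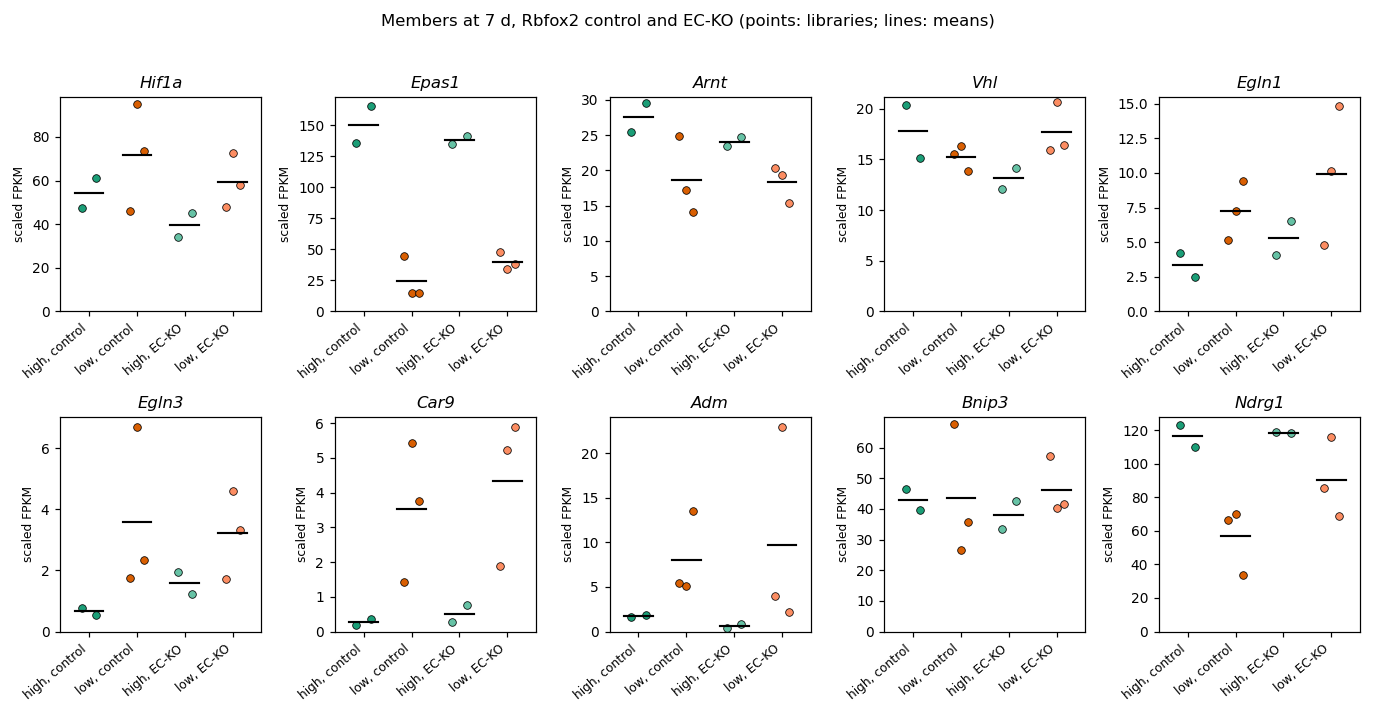
Scaled FPKM of the members in the 10 libraries taken at 7 d, by flow and genotype; each point is a library and each bar the group mean (n = 3 at low flow, n = 2 at high flow). Epas1 is lower in every low-flow library than in any high-flow library, and control and EC-KO points overlap at low flow for all 10 members.

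Cultured cells were measured in 1 library per condition, so their differences have no replicate check and are given as ratios of FPKM with 95% Poisson intervals for counting error. The endothelial line was kept for 48 hr without addition, with 10% plasma, with blood cells (platelets plus macrophages), or with all of these components together, to ask whether blood components reach the endothelium's RNA. Its 12 endothelial markers took only 0.029% to 0.0365% of the counts, against 0.524% to 0.578% in the primary cells of Rbfox2 mice, its smooth muscle markers 0.029% to 0.0625% against 0.458% to 0.58%, and macrophage markers took 0.00612% in the untreated line, 0.0131% with the cells and 0.0161% with all components.

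Hif1a was 207 FPKM in the untreated line, 160 with plasma, 240 with the cells and 453 with all components, the last a ratio of 2.19 (2.15 to 2.24) to the untreated line. Egln3 was 4.66, 12.4, 8.94 and 32.4 FPKM in the same order, which is 6.94 times (5.92 to 8.18) the untreated level with all components and 2.66 times (2.22 to 3.19) with plasma alone. Bnip3 was 60.1, 84.3, 80.7 and 144 FPKM (ratio 2.40, 2.26 to 2.55, with all components). These 3 genes were highest in the library with all components.

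Epas1 was 12.4 FPKM in the untreated line, 6.29 with plasma, 5.18 with the cells and 5.74 with all components (ratio 0.462, 0.413 to 0.516). Egln1 was 12.7, 14.0, 23.5 and 18.1 FPKM, and Ndrg1 was 36.1, 17.6, 30.4 and 31.1 FPKM. Arnt stayed between 19.0 and 25.2 and Vhl between 27.8 and 32.8. Car9 (0.302 to 0.823) and Adm (1.21 to 2.51), which were called higher at low flow in untreated arteries, were low throughout the line, with 9 to 21 and 21 to 51 reads, and each of their ratios to the untreated line had an interval that included 1.

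In primary aortic endothelial cells Adm had the highest FPKM of the 10 members, with 111 FPKM in Rbfox2 control and 183 in EC-KO cells (ratio 1.65, 1.55 to 1.76). Car9 was 0.606 and 2.44 (ratio 4.03, 2.23 to 7.65, from 16 and 44 reads) and Ndrg1 17.9 and 31.7 (ratio 1.77, 1.60 to 1.96). Vhl was 20.2 and 29.3 (ratio 1.45, 1.31 to 1.61), Arnt 15.8 and 19.97 (ratio 1.26, 1.15 to 1.39) and Hif1a 76.4 and 95.98 (ratio 1.26, 1.21 to 1.31). Egln3 was lower in the EC-KO cells, 5.69 against 8.63 (ratio 0.659, 0.537 to 0.805). Epas1 (53.7 and 52.5), Bnip3 (45.1 and 43.4) and Egln1 (6.61 and 7.54) had intervals that included a ratio of 1. The eGFP-positive primary cells, sequenced with 100 bp reads and so not set against the others, had 30.1 FPKM of Adm and 12.4 of Hif1a.

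**Figure D5:**
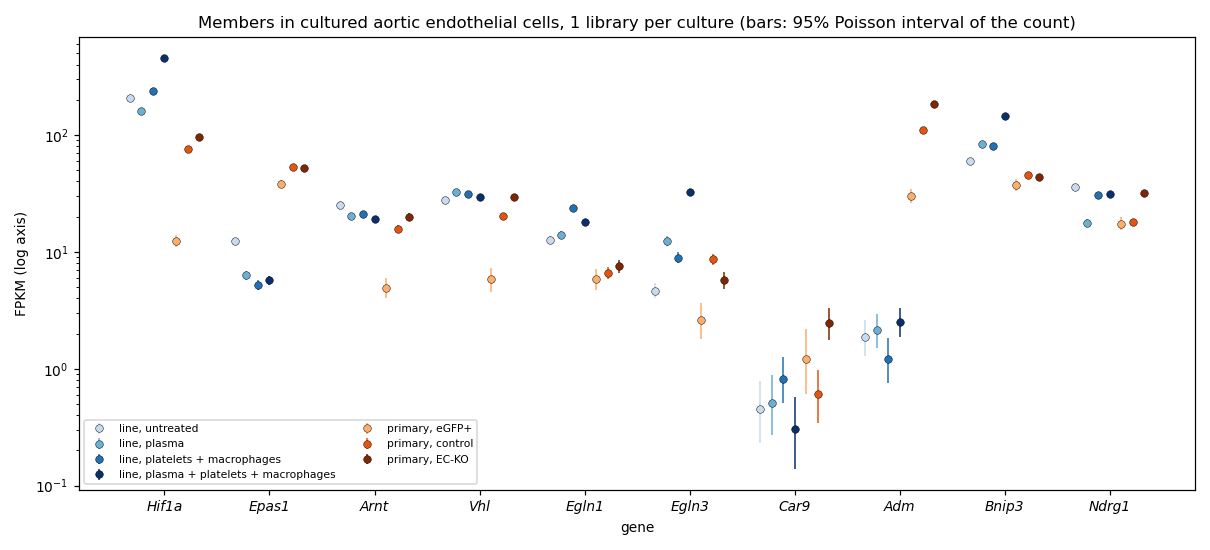
FPKM of the members in the cultured aortic endothelial cells, 1 library per condition, on a log axis; vertical lines are 95% Poisson intervals of the count. Hif1a, Egln3 and Bnip3 are highest in the line kept with all components, and Adm is far more abundant in primary cells than in the line.

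To describe the pattern of the alpha subunits, the genes most like them were taken from 11362 genes over the 33 artery libraries, by Pearson correlation of log2(CPM + 1). The libraries share flow groups and sequencing runs, so these values describe likeness and carry no test. For Epas1 they were Ifih1 (r = 0.955, an RNA sensor), Cbfa2t3 (0.951, a transcriptional corepressor) and Col4a4 (0.950, a basement membrane collagen), and within the experiments r was 0.974, 0.974 and 0.949 over the 9 untreated pools, 0.955, 0.974 and 0.959 over the 14 depletion libraries and 0.951, 0.994 and 0.986 over the 10 libraries at 7 d. For Hif1a they were Tm9sf3 (0.989), Acbd3 (0.984) and Ptp4a1 (0.984). Within experiments these were weaker (0.694 to 0.935). The pooled value also holds the gap in Hif1a level between the untreated pools and the other experiments, and the part of that gap was not tested.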

How the data were processed

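RNA-seq of carotid intima pools and cultured aortic endothelial cells was analysed in 42 samples. Per the methods, the authors mapped 150 bp reads to mm9 with STAR 2.5.1b and computed gene levels with RSEM 1.2.15. For the untreated set the methods describe TopHat on trimmed reads. The paper's legend to its DESeq2 output for low and high flow names STAR alignment instead. Whether the deposited counts of that set are the ones so aligned is not stated. Tool versions and build are also in the submitters' processing notes. They deposited expected counts, which sum to the depth of a library, and RPKM values per gene. Of these, 45 count columns and 9 RPKM columns were read. Count columns of a second run of the 100 bp liposome pair and of the eGFP-positive cells were then left out, so 42 libraries entered the results. Another 150 value columns, among them a second sequencing run of the untreated pools, were not used here. An entry without a gene was left out.

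Expected counts were rounded and tested with edgeR 4.0.16 in R 4.3.3 (filterByExpr, TMM, quasi-likelihood, Benjamini-Hochberg over all genes tested, adjusted p under 0.05). Untreated comparisons were fitted on the 2 groups alone, the 7 depletion groups in 1 fit and the 4 groups at 7 d in 1 fit. Scaled FPKM was computed from counts, effective length and TMM factors; FPKM of unreplicated libraries was set beside the authors' RPKM (ratio 0.929 to 1.03), with 95% Poisson intervals. Scripts were tested on simulated data. DESeq2 1.42.0, DESeq2 size factors in edgeR, no filter, a replicate block, the 2 groups alone and leaving out libraries were tried as alternatives; single-pool, earlier-run and library-total fits were added after seeing the data. The authors' own test was DESeq2.

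The members, the pathway lists and the marker lists were chosen with earlier results of these data known. All 10 members are named; the 3 most similar genes were taken for Hif1a and Epas1 (mean FPKM of at least 1), and list examples are those with the smallest adjusted p, of which 1 is not reported here. Promoters came from RefSeq (GRCm38.p6). Depth limits the rare members, Egln3, Car9 and Adm, most.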

Additional observations from a re-analysis of the deposited data

Results flagged for a closer look

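Egln1 and Vhl lay in opposite directions with flow in different groups of mice, every low-flow library lying on the same side of every high-flow library within each of the groups given here. Egln1 was -0.91 (log2, low against high flow) in the untreated pools and -1.004 in the PBS liposome mice, but 0.59 in the IgG mice and 1.12 in the 7 d controls. Vhl was -0.66 in the untreated pools and -0.35 (adjusted p by edgeR 0.204) in the PBS liposome mice, but 0.43 (adjusted p by edgeR 0.407) in the 7 d EC-KO mice. Of these 7 values those of Egln1 and Vhl in the untreated pools and of Egln1 in the PBS liposome mice passed the threshold, the last of these only with all 4 libraries (adjusted p by edgeR 0.0745 to 0.239 without 1 of them). Egln1 in the 7 d controls also passed with the replicate block (1.39, adjusted p by edgeR 0.0379) and without the earlier run (1.31, 0.0359). In the other groups with both arteries the libraries overlapped (Vhl -0.08 with IgG and -0.22 in the 7 d controls, Egln1 0.91 in the 7 d EC-KO mice). The difference between groups was not tested.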

How the results depend on the processing

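Among called or large member differences none changed direction under an alternative: 473 values kept their side of the threshold, 63 lost it and 41 gained it; Hif1a in untreated pools, which was not called, did turn negative with library totals, a scaling that moved the median of all genes from -0.07 to -0.69 (low against high flow) and from -0.04 to -0.71 (low flow against sham). Counts of members called that moved by over 1.5 times were these. Low flow against sham went from 5 to 0 with pool c as the lone low-flow library, a fit that called 0 of all genes. Anti-GPIbα against IgG went from 2 (2216 of 13401 genes called in all) to 4 under DESeq2 (3659 of 16665), to 4 without the filter (2532 of 16665) and to 6 with the 2 groups alone (4449 of 12892). Low against high flow at 7 d went from 1 to 4 (DESeq2), 6 (replicate block), 0 (the 2 groups alone) and 6 (without the earlier run) in the controls, and from 0 to 3, 2, 1 and 2 in the EC-KO mice. EC-KO against control at low flow went from 0 to 1 without the earlier run (Epas1). Smaller moves were from 5 to 7 with IgG (DESeq2, no filter, replicate block, the 2 groups alone), from 7 to 9 (no filter) and 6 (pool c alone) for low against high flow untreated, and from 5 to 6 (DESeq2 size factors, no filter) and 4 (all 3 groups in 1 fit) against sham. The cause was not tested.

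Leaving out each library in turn gave 6 to 8 members called for low against high flow untreated (4151 to 5411 genes in all), 3 to 8 for low flow against sham (2513 to 4757), 0 to 0 for anti-GPIbα (in fits that called 1 to 89 of all genes), 0 to 1 for clodronate, 1 to 5 with IgG (2141 to 4231 genes), 2 to 5 with PBS liposomes (1482 to 3839), 0 to 5 and 0 to 0 for the 7 d controls and EC-KO mice, and 0 to 1 for EC-KO against control at low flow; a lone library was assumed to vary like the others. Over all genes DESeq2 called 2187 at low flow in the 7 d controls against 320 by edgeR, 948 against 146 in the EC-KO mice and 467 against 16 after clodronate. Without control library 1, 1476 genes were called for EC-KO against control at low flow, against 0 with it.

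Same-numbered libraries deviated together in some pairs of groups and not in others: r was -0.144 to 0.414 over 21 pairs in the depletion experiment, with 8 over 0.1, among them all pairs of the PBS and clodronate liposome groups (0.347 to 0.414), and 0.00897 to 0.173 over 6 pairs at 7 d, with 4 over 0.1. The numbers were therefore not used as pairs in the reported fits. A replicate block gave 3 members for anti-GPIbα, 7 with IgG and 7 with PBS liposomes, among 3307, 5817 and 5101 genes called in all (2216, 5422 and 4692 without it). No paired fit was made for the untreated pools because their letters pair no samples, and the other sequencing run of those pools was not run.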
